A study of Mus musculus with 4 samples.

Results

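Gene desert loops are chromatin loops whose both ends lie far from any protein-coding gene. They were taken from Hi-C loop lists of mouse uterus by position alone: a loop counted when it was at most 2 Mb long and both of its anchors, the pair of segments that the loop joins, lay at least 100 kb from the body of every protein-coding gene in the RefSeq annotation of mm10. The rule kept 1880 of the 59353 loops listed over 4 libraries. Hi-C ligates stretches of chromatin that touch in the nucleus and reads the joined ends, and the deposited lists give the positions of the loops called from such contacts. The 4 libraries were whole uteri of ovariectomised C57BL/6J females over 10 weeks old that had rested for 10 to 14 days and were sampled 1 h after 1 injection. The knockout library came from an animal or animals lacking estrogen receptor alpha (ERα; genotype labelled Ex3aERKO) given 100 ul of saline into the abdomen. The progesterone library was wild type and received a subcutaneous dose of 1 mg in sesame oil (100 ul), so carrier and route differ as well as hormone. The vehicle libraries, replicates 2 and 3, were wild type and received the saline. All females lacked ovaries, the sources used here do not say whether a library was 1 animal or a pool, and estradiol samples were not analysed here. Neither the knockout of Esr1 nor the identity of the tissue can be checked from positions of loops.

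Most loops of this kind are formed when cohesin extrudes chromatin until it meets CTCF bound at the anchors, and such loops bring distant regulatory DNA near a promoter or keep it away. Gene deserts are long stretches without protein-coding genes. Many border genes of transcription factors, signals and guidance molecules that control development, and hold their enhancers and long noncoding RNA (lncRNA) genes. In the uterus, factors such as Nr2f2 in the stroma and signals of the Wnt, BMP and hedgehog families pattern the Müllerian duct and later take part in the response to steroid hormones.

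Protein-coding genes were absent from these anchors by the rule, but microRNA and lncRNA genes were not. The sequences of greatest interest belong to a pair of related microRNA clusters, on chromosomes 16 and 9, that lay inside or at the ends of loops in all 4 lists. They were chosen after their values were seen. Mature sequences are from RefSeq (GRCm38.p6), 5′ to 3′, and capitals mark the seed, bases 2 to 8, which pairs with target messenger RNAs. The 5p arms of miR-99a (chromosome 16) and miR-100 (chromosome 9) share their seed, and the 5p arms made from Mir125b-2 (chromosome 16) and Mir125b-1 (chromosome 9) have the same sequence:
mmu-miR-99a-5p: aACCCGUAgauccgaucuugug
mmu-miR-100-5p: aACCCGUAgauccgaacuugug
mmu-miR-125b-5p: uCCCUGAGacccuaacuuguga
mmu-let-7c-5p: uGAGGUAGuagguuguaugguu
The let-7 member of the cluster on chromosome 9 is Mirlet7a-2.

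The promoters of a pair of lncRNA genes at anchors in all 4 lists are shown because loops end on them; each runs from 250 bases before to 50 bases after the start, in the direction of the gene. The promoter of Gm38584 (chr7:69490988-69491287, minus strand) lies in the 5 kb segment at which the most loops of the largest cluster end. It held no match to the motif searched, which is given with the next promoter:
Gm38584: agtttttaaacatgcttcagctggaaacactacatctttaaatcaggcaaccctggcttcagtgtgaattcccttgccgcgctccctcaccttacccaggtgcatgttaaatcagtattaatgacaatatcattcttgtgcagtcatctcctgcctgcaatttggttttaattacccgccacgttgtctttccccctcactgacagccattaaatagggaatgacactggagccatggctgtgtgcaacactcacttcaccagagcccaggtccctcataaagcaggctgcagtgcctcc
Mir100hg is the lncRNA gene from which miR-100, let-7a and miR-125b are made on chromosome 9, and 1 of its promoters (chr9:41376276-41376575, plus strand) lies in the anchor of the shortest of its loops in all 4 lists. Capitals mark a match to ACANNNTGT, a reduced form of the element bound by the progesterone receptor:
Mir100hg: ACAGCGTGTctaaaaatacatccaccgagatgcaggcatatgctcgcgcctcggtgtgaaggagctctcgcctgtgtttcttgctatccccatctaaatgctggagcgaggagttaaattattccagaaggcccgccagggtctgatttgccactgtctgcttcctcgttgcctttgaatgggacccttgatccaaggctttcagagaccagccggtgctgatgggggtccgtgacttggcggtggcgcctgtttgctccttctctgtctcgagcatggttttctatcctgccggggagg
Over both strands, ACANNNTGT was in 6.85% of all 32851 RefSeq promoters and in 13 of the 163 noncoding promoters at desert loop anchors of any list (7.98%), while all 11575 noncoding promoters had it in 8.46%. These shares describe promoters only, since the sequence of whole anchors was not used here.

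The knockout list held 870 desert loops, the progesterone list 305, and vehicle replicates 2 and 3 held 511 and 194. Among the 21829 knockout loops this was 3.99% (3.73 to 4.25), and among the 11752 loops after progesterone 2.60% (2.32 to 2.90). They were 3.12% (2.86 to 3.40) of the 16387 loops of vehicle replicate 2 and 2.07% (1.79 to 2.38) of the 9385 of vehicle replicate 3. Brackets hold 95% bounds by the exact method of Clopper and Pearson here and below; they take in counting error alone, and loops of 1 region are not independent. The share was larger in the longer lists, and the vehicle replicates differed from each other beyond their intervals. The knockout share also lay above that of both vehicle lists, but its list was the longest. With positions only, sequencing depth is unknown, a loop that is not listed was not called rather than absent, and the part of depth in these counts was not tested. With 1 knockout and 1 progesterone library, no test between conditions was made.

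The territory open to such anchors was large for the loops it held. Segments at least 100 kb from every protein-coding gene made up 738 Mb, or 28.4% of the 2600.1 Mb spanned by these genes. Of the anchors of all listed loops, of any length, 9.37% in the knockout, 8.37% after progesterone, and 9.01% and 7.69% in vehicle replicates 2 and 3 lay in it. There were 1.18 desert loops per Mb of this territory in the knockout list, 0.413 in the progesterone list, and 0.693 and 0.263 in vehicle replicates 2 and 3. Loops with 1 anchor in a desert and the other nearer to genes were more frequent, at 2271, 1294, 1857 and 1027 loops of the knockout, progesterone, vehicle 2 and vehicle 3 lists. At the limits of the rule, the nearest anchors kept lay 100.1 kb from a gene and the nearest left out 99.9 kb. The longest loop kept was 1980 kb and the shortest left out for its length 2060 kb, both in the knockout list. Loops over 2 Mb with both anchors in deserts numbered 15 in the knockout list, 11 in the progesterone list, and 11 and 5 in vehicle replicates 2 and 3.

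Desert loops were spread unevenly over clusters, where a loop found in several lists counted once in each. When loops with overlapping spans were chained over the 4 lists they formed 340 clusters, of which 132 held 1 loop and 51 held 10 or more. The 12 largest held 523 loops, 27.8% of all. Each of these 12 had loops of all 4 libraries, as 85 clusters did. Loops of 1 library alone made up 151 clusters: 92 from the knockout list, 14 from the progesterone list, and 40 and 5 from vehicle replicates 2 and 3. The share of a list in the 12 largest clusters was 28.0% in the knockout, 29.5% after progesterone, and 24.9% and 32.0% in vehicle replicates 2 and 3. The clusters were chained and ranked over the pooled lists, so their presence in each list is not independent of that choice. The same share was not taken for other loops. By chromosome, the density over the 4 lists was highest on chromosome 7, with 6.51 loops per Mb of desert, and lowest on the X chromosome, with 0.430. Chromosome 16 was second at 4.38.

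**Figure D1:**
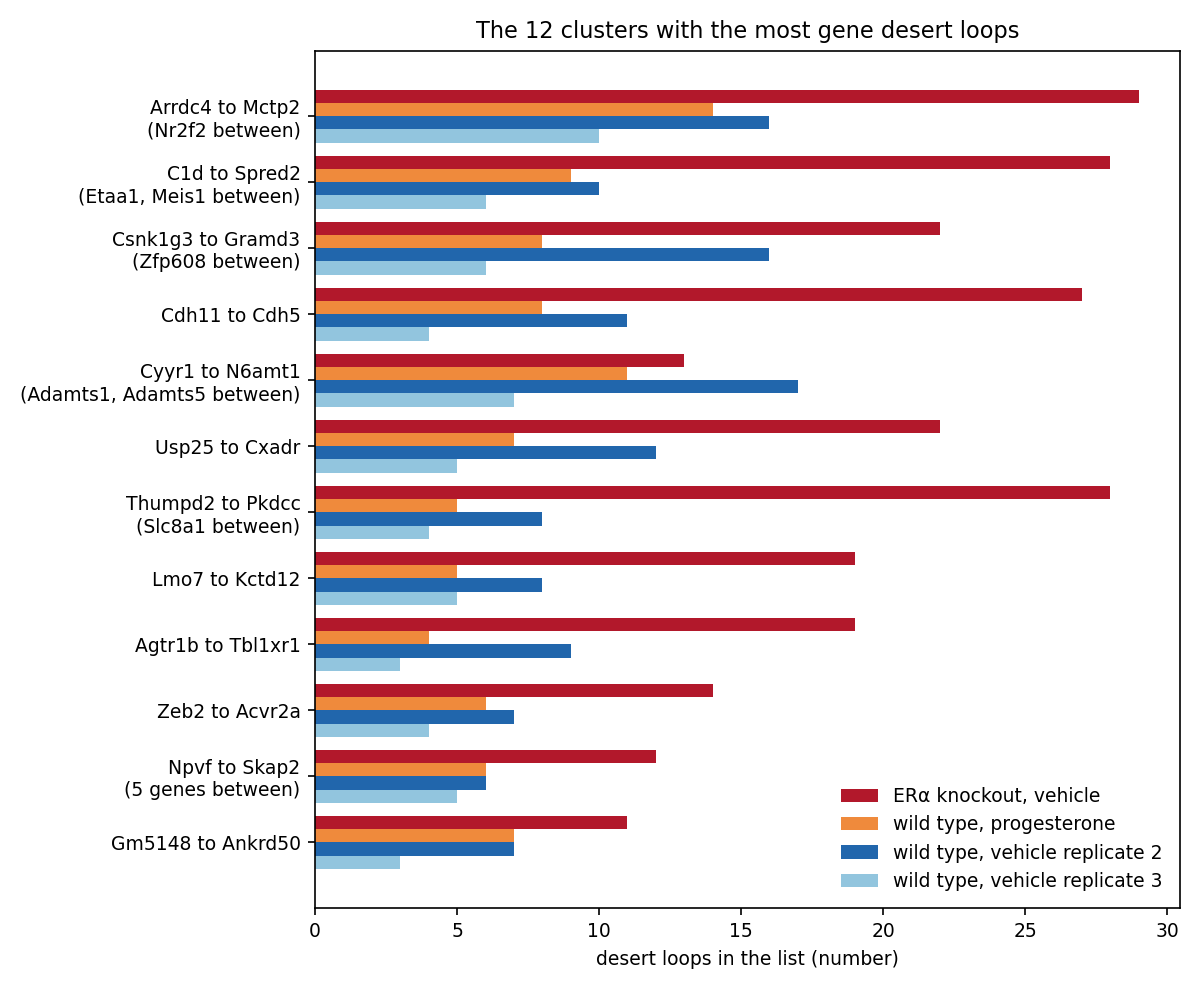
Number of gene desert loops per library (x axis) in the 12 clusters with the most loops, named by the protein-coding genes on either side, with genes between them in brackets (genes with a Gm name left out); each bar is 1 library. The knockout bar is the longest in 11 of the 12 clusters, and vehicle replicate 2 is the longest between Cyyr1 and N6amt1.

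The largest cluster lay around Nr2f2, which encodes COUP-TFII, a nuclear receptor of mesenchyme that acts in the uterine stroma. It ran from Arrdc4 to Mctp2 (chr7:68915001-71975000), with 29 knockout loops, 14 progesterone loops, and 16 and 10 in vehicle replicates 2 and 3. Of these, 7 knockout, 4 progesterone, 4 vehicle 2 and 3 vehicle 3 loops enclosed Nr2f2 itself (chr7:70351946-70366746). The segment chr7:69490001-69495000, at the lncRNA gene Gm38584 and 857 kb from Nr2f2, was an anchor of 8 knockout, 5 progesterone, 5 vehicle 2 and 4 vehicle 3 loops. The longest desert loop found in all 4 lists joined it to chr7:71410001-71415000 across Nr2f2. Its length was 1920 kb in the knockout, 1920 kb after progesterone, and 1920 and 1925 kb in vehicle replicates 2 and 3. A companion ended nearer, at 1740 kb in the knockout, 1750 kb after progesterone, and 1740 and 1725 kb in the vehicle replicates. On the other side the same segment looped away from Nr2f2 toward Arrdc4, over 515 kb in the knockout, 515 kb after progesterone, and 515 and 510 kb in the vehicle replicates. Of the 16 vehicle 2 loops around Nr2f2, 7 were in every list, where 39.2% of all vehicle 2 loops up to 2 Mb were. Neither vehicle list held 12 of the 29 found there in the knockout. Over the whole knockout list, 60.9% of desert loops and 40.3% of all loops up to 2 Mb were in neither vehicle list. The region also held loops just over the length limit, such as 2260 kb in the knockout, 2375 kb after progesterone, and 2375 and 2100 kb in vehicle replicates 2 and 3.

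**Figure D2:**
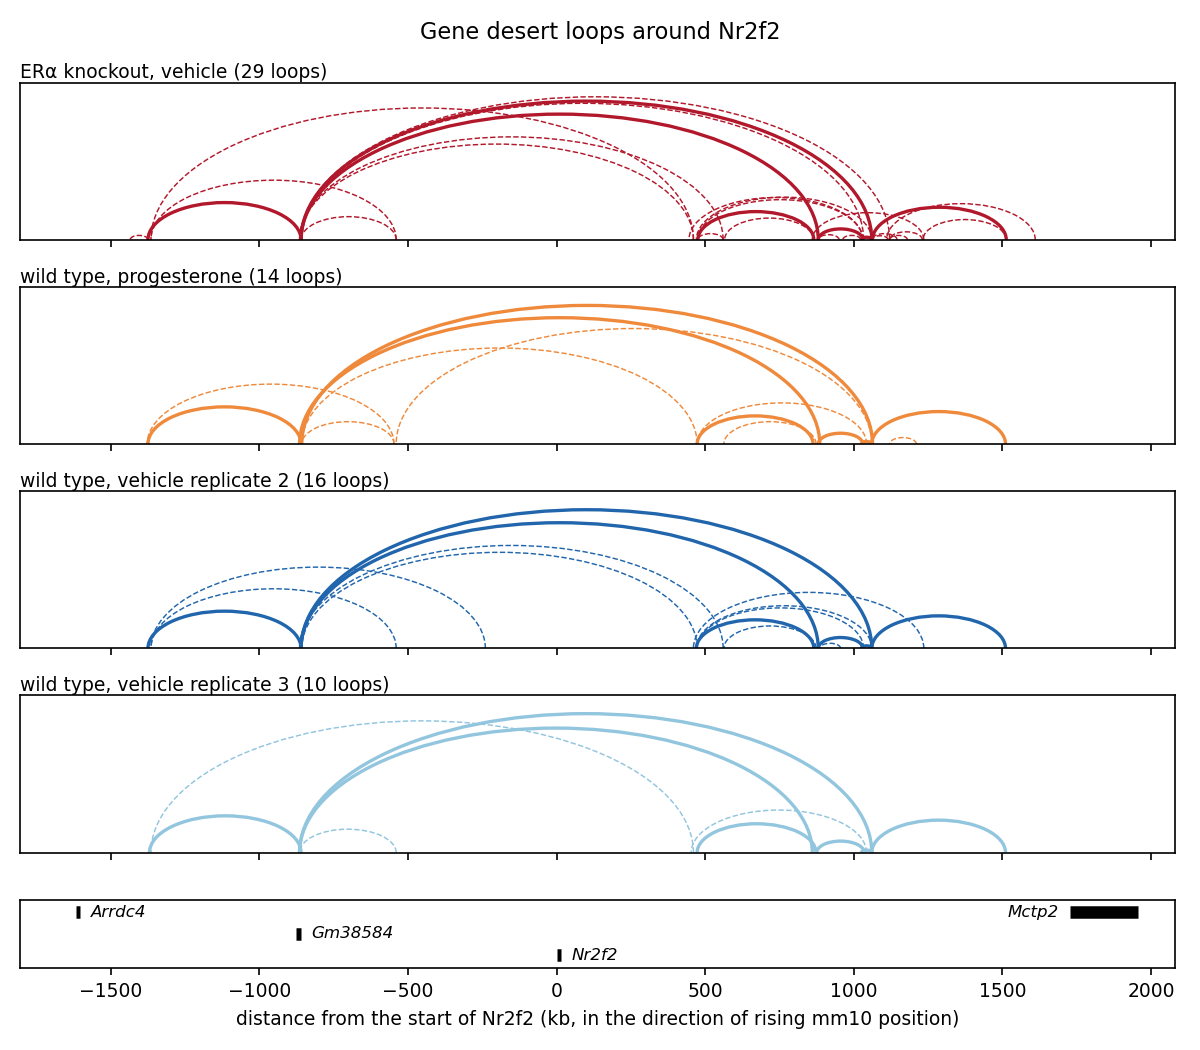
Gene desert loops between Arrdc4 and Mctp2 in each library, drawn as arcs between anchor centres; the x axis is the distance in kb from the start of Nr2f2, arc height is in proportion to loop length, solid arcs are loops in all 4 lists and dashed arcs the others. The solid arcs from Gm38584 over Nr2f2 are present in every panel, with 29 loops in the knockout, 14 after progesterone, and 16 and 10 in the vehicle replicates.

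Meis1, a homeobox factor that acts with HOX proteins, lay in the cluster with the next most loops (chr11:17450001-19775000, C1d to Spred2), with 28 knockout, 9 progesterone, 10 vehicle 2 and 6 vehicle 3 loops. Of these, 2 knockout, 3 progesterone, 1 vehicle 2 and 1 vehicle 3 loops enclosed Meis1, and most of the others lay in the deserts on its sides. A loop that ended 130.4 kb from Meis1 was 165 kb long in the knockout, 175 kb after progesterone, and 165 and 160 kb in vehicle replicates 2 and 3. Its anchor is in the lncRNA gene Gm31674. The most used segment, beyond Meis1 at chr11:19420001-19425000, had 7 knockout, 4 progesterone, 4 vehicle 2 and 1 vehicle 3 loops.

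The cluster from Csnk1g3 to Gramd3 (chr18:54610001-55820000) surrounded Zfp608, a zinc finger gene, with 22 knockout, 8 progesterone, 16 vehicle 2 and 6 vehicle 3 loops. A 630 kb loop beside Zfp608 had that length in all 4 lists. Between Cdh11, an adhesion gene of mesenchyme, and Cdh5, the cadherin of endothelium, no protein-coding gene is annotated. The loops there numbered 27 in the knockout, 8 after progesterone, and 11 and 4 in vehicle replicates 2 and 3. Their most used segment was chr8:103230001-103235000, an anchor of 10 knockout, 4 progesterone, 6 vehicle 2 and 3 vehicle 3 loops. The Cyyr1 to N6amt1 cluster (chr16:85670001-87250000), which holds the matrix protease genes Adamts1 and Adamts5, was the exception to the order of the lists. It had 13 knockout and 11 progesterone loops, against 17 and 7 in vehicle replicates 2 and 3. It held 6 vehicle 2 loops found in all 4 lists, and several of them shared a segment: 825 kb and 365 kb loops both ended at chr16:87245001-87250000, where the lncRNA gene Gm41484 lies.

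Slc8a1, the sodium and calcium exchanger of muscle and heart membranes, was enclosed by 7 knockout, 3 progesterone, 4 vehicle 2 and 3 vehicle 3 loops, each with no other protein-coding gene inside. They belong to the cluster from Thumpd2 to Pkdcc (chr17:81175001-83010000), with 28 knockout, 5 progesterone, 8 vehicle 2 and 4 vehicle 3 loops. A loop over Slc8a1 measured 1665 kb in the knockout, 1675 kb after progesterone, and 1665 and 1675 kb in the vehicle replicates. The remaining clusters of the 12 lay from Usp25 to Cxadr (46 loops, below), Lmo7 to Kctd12 (37), Agtr1b to Tbl1xr1 (35), Zeb2 to Acvr2a (31), Npvf to Skap2 (29) and Gm5148 to Ankrd50 (28). Zeb2 encodes a repressor that acts in the change from epithelial to mesenchymal state. The loop beside it measured 860 kb in the knockout, 850 kb after progesterone, and 860 and 850 kb in the vehicle replicates, and ended 463 kb from the gene. In the Lmo7 to Kctd12 desert, 56.8% of the loops shared the segment chr14:102510001-102515000, with 8 knockout, 5 progesterone, 5 vehicle 2 and 3 vehicle 3 loops. The most used segment held between 30.2% and 56.8% of the loops of a cluster, and in 10 of the 12 clusters it was used in all 4 lists. That segment was picked by its count over the pooled lists, so its use in several lists is not a separate result.

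The microRNA cluster on chromosome 16 lay between Usp25 and Cxadr, beside the annotated lncRNA gene Mir99ahg, in a cluster of 22 knockout, 7 progesterone, 12 vehicle 2 and 5 vehicle 3 loops. Mir99a (chr16:77598936-77599000) and Mirlet7c-1 (chr16:77599657-77599750), which stand side by side, were enclosed by the same 8 knockout, 5 progesterone, 7 vehicle 2 and 3 vehicle 3 loops. Mir125b-2 (chr16:77646273-77646343) was enclosed by 8 knockout, 4 progesterone, 5 vehicle 2 and 3 vehicle 3 loops. A pair of these loops was in every list. The longer measured 905 kb in the knockout, 905 kb after progesterone, and 905 and 900 kb in vehicle replicates 2 and 3. The shorter measured 625 kb in the knockout, 625 kb after progesterone, and 625 and 620 kb in the vehicle replicates. Both end at chr16:78155001-78160000, the anchor of 8 knockout, 4 progesterone, 6 vehicle 2 and 3 vehicle 3 loops. Anchors that covered Mir99a itself were found in 4 knockout loops, 1 progesterone loop and 3 vehicle 2 loops, and in none of the loops of vehicle replicate 3, the shortest list.

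**Figure D3:**
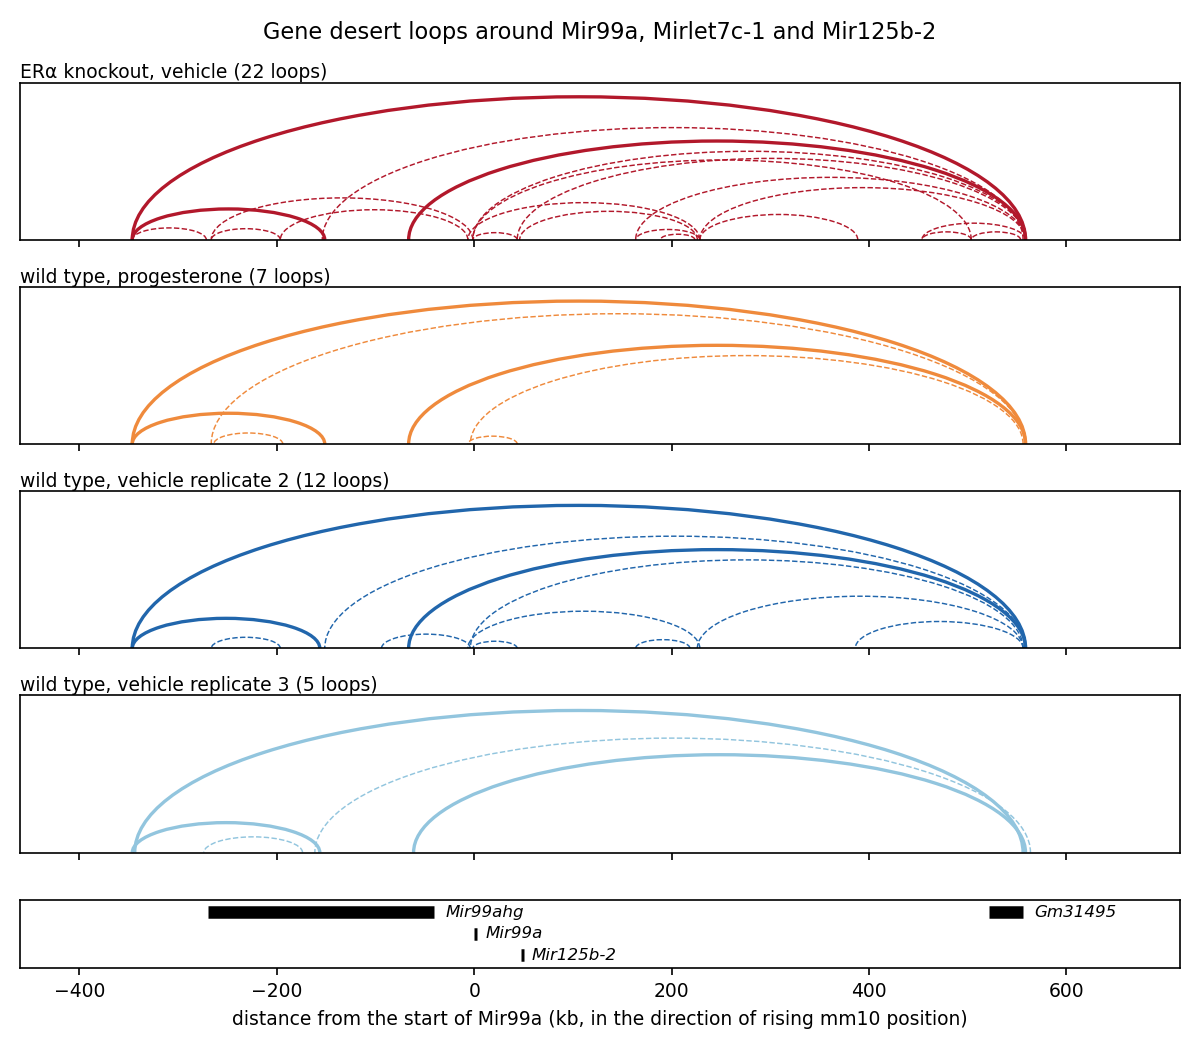
Gene desert loops between Usp25 and Cxadr in each library, drawn as arcs between anchor centres; the x axis is the distance in kb from the start of Mir99a (Mirlet7c-1 lies beside it), arc height is in proportion to loop length, solid arcs are loops in all 4 lists and dashed arcs the others. The 905 kb and 625 kb arcs end at the same place in every panel, and arcs that start at Mir99a are absent from the panel of vehicle replicate 3.

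The related cluster on chromosome 9 had a smaller set of loops, 8 in the knockout, 4 after progesterone, and 5 and 4 in vehicle replicates 2 and 3, between Ubash3b and Gm40514. Mir100hg was at an anchor of every one of these loops in each list. Mir100 (chr9:41531425-41531504) and Mirlet7a-2 (chr9:41536716-41536811) were enclosed by 3 knockout, 1 progesterone, 1 vehicle 2 and 1 vehicle 3 loops. The loop over them in all 4 lists measured 100 kb in the knockout, 110 kb after progesterone, and 110 kb in each vehicle replicate. Mir125b-1 lay in an anchor of 3 knockout, 1 progesterone, 2 vehicle 2 and 1 vehicle 3 loops. Over all lists, 30 of 1228 annotated microRNA genes lay inside desert loops, 8 of them in every list. Mir205, an epithelial microRNA, was in 1 knockout, 1 progesterone and 1 vehicle 2 loop. The progesterone and vehicle 2 loops were the same 80 kb loop. It was matched in the knockout and vehicle replicate 3 by a 60 kb loop that began just past Mir205. The knockout loop around Mir205 was another, 200 kb long and in no other list. Mir137 was in 1 knockout and 1 vehicle 2 loop, and Mir221 and Mir222 were in 2 knockout loops and in no other list.

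Longer noncoding genes were frequent at these anchors. A lncRNA gene body overlapped an anchor of 44.8% (41.5 to 48.2) of the knockout desert loops, 47.5% (41.8 to 53.3) of the progesterone loops, and 51.1% (46.6 to 55.5) and 51.0% (43.8 to 58.3) of those of vehicle replicates 2 and 3. The shares among the other loops up to 2 Mb were 34.8%, 35.5%, 35.0% and 36.5% in the same lists, which are nearer to protein-coding genes by construction. When only the start or end of the lncRNA gene counted, the knockout share was 27.8% (24.9 to 30.9) against 26.9% of its other loops, so that difference was within the interval. It was 33.4% against 27.6% after progesterone, and 34.8% against 26.8% and 37.6% against 28.9% in vehicle replicates 2 and 3. With any noncoding gene or pseudogene counted by its start or end, the knockout share was lower, 31.8% against 33.4%. It was 37.0% against 34.9% after progesterone, and 38.7% against 33.5% and 40.7% against 37.1% in vehicle replicates 2 and 3. In all, 425 of 27923 noncoding genes and pseudogenes lay at anchors, 358 of them lncRNA genes, and 66 were at anchors in every list. Those with the most loops included Gm34265, 183 kb long, with 11 knockout, 3 progesterone, 6 vehicle 2 and 2 vehicle 3 loops. Gm34011 had 10 knockout, 2 progesterone, 7 vehicle 2 and 2 vehicle 3 loops, and Gm41484 had 4 knockout, 4 progesterone, 7 vehicle 2 and 4 vehicle 3 loops. Mir99ahg had 7 knockout, 4 progesterone, 5 vehicle 2 and 4 vehicle 3 loops. Gm31813, Gm34345, Gm20755 and Gm13470 followed, with between 16 and 19 loops each over the 4 lists. Roles of these Gm genes are not given by the annotation.

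Most desert loops held no protein-coding gene. None lay inside 89.8% of knockout loops, 82.6% of progesterone loops, and 83.6% and 82.5% of the loops of vehicle replicates 2 and 3. Loops with a gene inside were longer, with medians of 975 kb in the knockout, 780 kb after progesterone, and 792.5 and 975 kb in the vehicle replicates. The rule itself bears on both results. Each anchor must lie at least 100 kb from an enclosed gene, so short loops cannot enclose one. How much of either result comes from this was not tested. The genes inside numbered 115 over all lists, and 25 of them (21.7%) were in the developmental lists of transcription factors, signals and guidance genes, which hold 515 of all 21631 protein-coding genes. The developmental lists were picked with earlier results of the same loop lists known, so such counts are descriptions. Of the 37 genes inside loops of every list, 10 were developmental. Besides Nr2f2 and Meis1 these included the HMG-box factor genes Tox3, with 3 knockout, 2 progesterone, 2 vehicle 2 and 1 vehicle 3 loops, and Tox, with 2 knockout, 2 progesterone, 3 vehicle 2 and 1 vehicle 3 loops. Bmp4, a morphogen of the BMP family, was the sole gene inside 1 knockout, 1 progesterone, 2 vehicle 2 and 1 vehicle 3 loops. Isl1, a LIM homeobox factor, was the sole gene of a loop of 1480 kb from Itga1 to Parp8 that was in all 4 lists. Nfib, Pou4f1, Nr4a2 and the protocadherin gene Pcdh18 were also enclosed in every list. Outside the developmental lists, Cenpw, which encodes a centromere protein, was enclosed by 5 knockout, 3 progesterone, 3 vehicle 2 and 2 vehicle 3 loops, and the hyaluronan synthase gene Has2 by 2 loops in every list.

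A gene was taken as beside a loop, or next to it, when it was the nearest protein-coding gene on that side, at any distance. Counting genes beside a loop as well as inside, 678 of 21631 protein-coding genes (3.13%) were next to or inside a desert loop of any list, and 205 (0.948%) in every list. For the developmental lists the counts were 108 of 515 genes (21.0%) and 32 (6.21%). The genes of these lists were picked with earlier results of the same loop lists known, and genes beside long gaps have more room for such loops, so the shares are descriptions. Of the homeobox factors, 15 of 127 were next to or inside a loop of any list and 7 in every list. Meis1, Zeb2, Lmx1a, Isl1 and Pou4f1 were among them. Meis1 had 26 knockout, 9 progesterone, 9 vehicle 2 and 5 vehicle 3 loops beside or around it, and Zeb2 had 18 knockout, 8 progesterone, 7 vehicle 2 and 4 vehicle 3 loops. Of those counted for Zeb2, a cluster of 4 knockout loops and 1 progesterone loop lay at least 2882.6 kb from the gene. Of the SOX, forkhead, T-box and GATA factors, 10 of 62 were counted and none in every list; the nearest, named after its values were seen, was Gata6, with 9 knockout, 2 progesterone and 2 vehicle 2 loops.

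Of the zinc finger, bHLH and nuclear receptor factors, 28 of 114 were next to or inside a loop and 13 in every list. These 13 were Nr2f2, Myc, Osr1, Zfp703, Id4, Sall1, Tox3, Ebf1, Maf, Tox, Klf4, Nr4a2 and Nfib. Myc, the growth factor-responsive regulator of proliferation, had 12 knockout, 3 progesterone, 7 vehicle 2 and 4 vehicle 3 loops, all beside it and none around it. Osr1, which is needed for urogenital development, had 10 knockout, 3 progesterone, 4 vehicle 2 and 2 vehicle 3 loops. Among signals and receptors the counts were 25 of 120 and 5. Rspo3, an enhancer of Wnt signalling, had 8 knockout, 4 progesterone, 5 vehicle 2 and 2 vehicle 3 loops. Gas1, a coreceptor of hedgehog proteins, had 4 knockout, 1 progesterone, 4 vehicle 2 and 2 vehicle 3 loops, and Bmp4, the Wnt inhibitor gene Dkk2 and the endothelin receptor gene Ednrb completed the 5. Guidance and adhesion genes had the largest share of the lists, 30 of 92, with 7 in every list: Cdh11, Plxna2, Pcdh18, Tenm2, Cdh19, Cntnap5a and Unc5d. Some of these were far from their loops: at least 3284.7 kb for Cntnap5a, 2337.9 kb for Tenm2 and 1620.3 kb for Unc5d. Plxna2, a receptor for semaphorins, had 9 knockout, 2 progesterone, 7 vehicle 2 and 4 vehicle 3 loops.

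Genes tied to uterine biology appeared as well. Of the uterine patterning and Müllerian duct genes 10 of 44 were next to or inside a loop and 5 in every list, namely Meis1, Nr2f2, Osr1, the Wnt receptor gene Fzd1 and Isl1. Of the early estrogen response genes 9 of 43 were counted and 5 in every list, namely Myc, Gadd45g, Klf4, Jun and Nr4a2. Jun, a component of AP-1, had 3 knockout, 1 progesterone, 2 vehicle 2 and 1 vehicle 3 loops beside it, and Klf4 had 4 knockout, 1 progesterone, 2 vehicle 2 and 1 vehicle 3 loops. Of the stromal and matrix genes 8 of 28 were counted. In every list were Dcn (decorin; 4 knockout, 2 progesterone, 3 vehicle 2 and 2 vehicle 3 loops), Tnc (tenascin C; 2 knockout, 4 progesterone, 1 vehicle 2 and 3 vehicle 3 loops) and Has2. Of the markers of other cell types 3 of 27 were counted, and Cdh5 alone in every list.

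Gaps between neighbouring genes were also compared, whether or not they held a loop. Of 1516 gaps of at least 205 kb, the smallest that can hold a 5 kb anchor under the rule, 358 (23.6%) had an anchor of a desert loop in any list. With a developmental gene on a border the share was 33.3% (28.5 to 38.5), 119 of 357 gaps, and without one it was 20.6% (18.3 to 23.1), 239 of 1159. The developmental lists were picked with earlier results of the same loop lists known, so these shares are descriptions too. The gaps with a developmental border were also longer, with a median of 608 kb against 394 kb. Within length classes the share with an anchor in any list was higher with a developmental border in each class, but the intervals overlapped. The shares were 16.8% against 10.6% under 500 kb, 42.0% against 38.9% from 500 kb to 1 Mb, and 47.1% against 34.1% at 1 Mb or more. Counted in all 4 lists, the middle class went the other way, at 11.6% against 13.4%. The shortest class then had 4.20% against 2.65%, and the longest 17.6% against 10.1%. Many long gaps held none: 172 gaps of 1 Mb or more had no such anchor in any list. The longest, 4542 kb between the protocadherin genes Pcdh20 and Pcdh9 on chromosome 14, was bordered by adhesion genes of the nervous system.

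**Figure D4:**
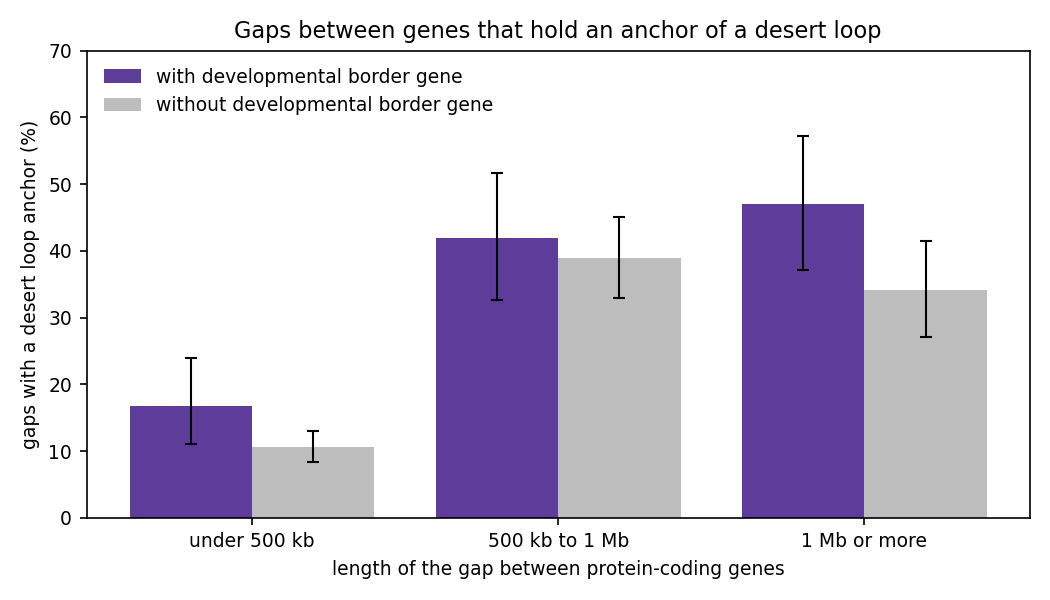
Share of gaps between protein-coding genes (y axis, percent) that held an anchor of a desert loop in any list, by gap length, for gaps with and without a developmental list gene on a border; error bars are exact 95% intervals. The share was 16.8% against 10.6%, 42.0% against 38.9% and 47.1% against 34.1% from the shortest to the longest class. The developmental lists were picked with earlier results of the same loop lists known.

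Median lengths of desert loops and other loops differed by 0 to 20 kb. The desert median was 150 kb in the knockout, 210 kb after progesterone, and 200 and 212.5 kb in vehicle replicates 2 and 3. The other loops up to 2 Mb had medians of 150, 190, 180 and 200 kb in the same lists. The difference averaged 13.1 ± 9.44 kb over the libraries (SD, n = 4; longer in 3 and equal in the knockout), with an exact sign-flip permutation p of 0.25, two-sided, where 4 libraries cannot go below 0.13. Its direction turned within anchors of 5 kb alone (mean -7.50 kb) and of 10 kb alone (-1.25 kb), and a difference in length was not detectable. Loops over 500 kb were 14.9% of desert loops in the knockout, 24.6% after progesterone, and 22.9% and 23.7% in vehicle replicates 2 and 3. Among the other loops they were 14.9%, 17.3%, 17.3% and 16.9%. The shortest desert loop of every list was 35 kb.

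Desert loops were found again in another list less often than other loops. Finding a loop again meant that both of its anchors, widened by 10 kb on each side, met those of 1 loop in the second list. Of the knockout desert loops 43.0% (39.7 to 46.4) were in at least 1 other list, against 63.3% of all its loops up to 2 Mb. Of the progesterone desert loops it was 81.0% (76.1 to 85.2) against 91.6%. In vehicle replicates 2 and 3 it was 70.3% (66.1 to 74.2) against 83.3%, and 87.6% (82.2 to 91.9) against 94.3%. Set against the other loops, leaving out the desert loops themselves, the difference averaged -13.1 ± 6.05 percentage points (SD, n = 4; lower in 4 of 4 libraries). The exact sign-flip permutation p was 0.13, two-sided, which is the smallest that 4 libraries allow, and the 4 values are not independent because each list is matched in the others. By loop length, the mean difference was -15.5 points up to 100 kb, -14.6 from there to 500 kb and -5.18 above 500 kb. When only loops of 1 anchor size were kept, in the lists matched against as well, it was -14.3 with 5 kb anchors and -7.47 with 10 kb anchors.

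The loops in all 4 lists were few and long. They numbered 100 in the knockout, 104 after progesterone, and 101 and 97 in vehicle replicates 2 and 3, since a loop can match more than 1 partner. That was 11.5% (9.45 to 13.8) of knockout desert loops, 34.1% (28.8 to 39.7) of progesterone desert loops, and 19.8% (16.4 to 23.5) and 50% (42.8 to 57.2) of those of vehicle replicates 2 and 3. All loops up to 2 Mb were in every list in 29.4%, 55.3%, 39.2% and 69.5%. The median length of the desert loops in every list was 335 kb in the knockout, 335 kb after progesterone, and 330 and 325 kb in the vehicle replicates. Desert loops of no other list had medians of 130 kb (496 knockout loops), 132.5 kb (58 progesterone loops), 200 kb (152 vehicle 2 loops) and 112.5 kb (24 vehicle 3 loops). The matching rule itself holds the lengths of such loops close together, and among the 101 vehicle 2 loops 81 had lengths within 10 kb of each other over the 4 lists. Besides those over Nr2f2 and Slc8a1, the longest included loops over Tox (1800 kb and 1290 kb), over Isl1 (1480 kb), over Xylt1 (1180 kb), beside Tbl1xr1 (1280 kb) and from Trib1 toward Myc (1190 kb). The shortest were 35 kb loops between Tnc and Pappa, beside Npvf and beside Mctp2, a 45 kb loop beside Foxn2 and, tied at 50 kb, the loop at Mir100hg and 1 between Zfp770 and Dph6.

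**Figure D5:**
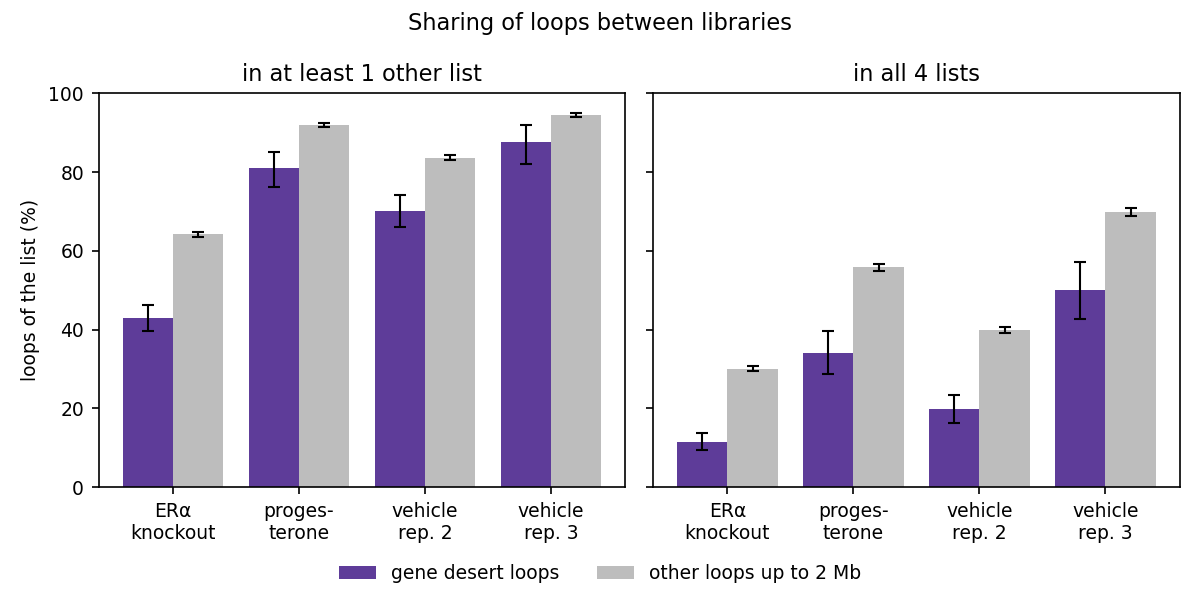
Share of loops (y axis, percent of the list) found in at least 1 other list (left) and in all 4 lists (right), for gene desert loops and for the other loops up to 2 Mb of each library; error bars are exact 95% intervals. The desert bar is lower in each library, from 43.0% in the knockout to 87.6% in vehicle replicate 3 on the left.

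The sharing of anchors between loops of 1 list depended on how it was counted. In the knockout, 91.6% of desert loops (89.6 to 93.4) had an anchor that overlapped an anchor of another loop of the list, against 89.2% of the other loops. The shares were 83.0% against 78.1% after progesterone, and 88.6% against 85.4% and 85.1% against 72.8% in vehicle replicates 2 and 3. Counted by anchor, with overlapping anchors merged and each kind of loop taken alone, the order was the opposite. In the knockout, 33.9% of the anchors of desert loops carried more than 1 desert loop, against 43.6% of the anchors of other loops with more than 1 other loop. These shares were 18.7% against 32.3% after progesterone, and 23.7% against 38.6% and 16.5% against 28.5% in vehicle replicates 2 and 3.

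Loss of ERα was set against both vehicle lists, and loops that differed were counted without a test. Of the 144 desert loops in both vehicle lists, 15 (10.4%; 5.95 to 16.6) were not in the knockout list, against 9.96% of all loops in both vehicle lists. Those 15 lay in 15 different clusters. Those still in the progesterone list included a 610 kb loop over Cenpw next to Rspo3, a 310 kb loop between Gja1 (connexin 43) and Hsf2, a 300 kb loop over Nt5c1b and Rdh14 next to Osr1, and a 170 kb loop between Adamts5 and N6amt1. Those absent from it too included a 690 kb loop between Zeb2 and Acvr2a, a 350 kb loop between Camk1g and Plxna2, a 230 kb loop between Ndfip2 and Spry2, and a 200 kb loop between Icos and Pard3b. In the other direction 530 of the 870 knockout loops (60.9%; 57.6 to 64.2) were in neither vehicle list, against 40.3% of all its loops, and 496 of them were in no other list. These 530 had a median length of 130 kb and were spread over 216 clusters. The most, 21, lay in the cluster around Slc8a1, where the longest was 1810 kb, and 18, 16 and 14 lay in the Meis1, Cdh11 to Cdh5, and Agtr1b to Tbl1xr1 clusters. The desert between Plpp3 and Usp24, with 14 knockout, 2 progesterone and 2 vehicle 2 loops and none of vehicle replicate 3, had 13. With the knockout and 1 vehicle list as the pair, and the other vehicle list as the one lacking the loop, the shares were larger than 10.4%. Of desert loops in the knockout and vehicle replicate 2, 58.9% were not in vehicle replicate 3, against 40.2% of all such loops. Of those in the knockout and vehicle replicate 3, 15.6% were not in vehicle replicate 2, against 7.92%.

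Progesterone was set against the same vehicle lists, so both comparisons share their controls. Of the 144 loops in both vehicle lists, 37 (25.7%; 18.8 to 33.6) were not in the progesterone list, against 15.1% of all loops. They lay in 32 clusters, with at most 2 in a cluster. Pairs lay in the Meis1, Zfp608, Lmo7 to Kctd12, Camk1g to Plxna2 and Snx7 to Rwdd3 deserts. The pair beside Meis1, of 380 and 340 kb, ended 330.4 and 400.4 kb from the gene and was also in the knockout list. In the other direction, 91 of the 305 loops after progesterone (29.8%; 24.8 to 35.3) were in neither vehicle list, against 14.7% of all its loops, and 58 of the 91 were in no other list. Of the 91 loops, 4 lay between Gm5148 and Ankrd50, with lengths of 265, 230, 120 and 70 kb. The 265 kb loop was also in the knockout list. Another 3 lay between Tnc, a matrix gene, and Pappa, a protease that acts on insulin-like growth factor binding proteins, at 350, 210 and 60 kb. The 60 kb loop was also in the knockout list. A further 3 lay between Auts2 and Castor2, a desert with 3 progesterone and 3 knockout loops and none in either vehicle list. With the progesterone and 1 vehicle list as the pair, the shares lay on both sides of 25.7%. Of desert loops in the progesterone list and vehicle replicate 2, 48.1% were not in vehicle replicate 3, against 28.0% of all such loops. Of those in the progesterone list and vehicle replicate 3, 10.3% were not in vehicle replicate 2, against 5.99%. How much of either comparison comes from the unequal length of the lists was not tested.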

How the data were processed

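The labels' protocols name the Arima kit for the Hi-C. The files the authors deposited, 1 per library and without a header line, hold chromosome, start and end of both anchors as positions in bases on mm10 and no other value. Juicer 1.5.6 is named per the submitters' processing notes; the sources used here do not name the program that called the loops or its thresholds. Starts counted from 0 and were written from 1.

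Length was measured between anchor starts. Protein-coding genes, noncoding genes and sequences were from RefSeq tables of GRCm38.p6, the assembly behind mm10, on chromosomes 1 to 19 and X, with 21631 protein-coding genes. Of the 30 microRNA genes inside desert loops, 27 matched a mature sequence. Loops were matched with 10 kb added to each side of each anchor and chained into clusters when their spans overlapped. The loops and gene lists were chosen with earlier results of these data known. Of the lists, 5 counted as developmental.

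The genes and loops named were the 12 clusters with the most loops, the 10 longest and 5 shortest loops in all 4 lists, up to 8 loops for either direction of a comparison, at most 15 genes per list and 10 noncoding genes by number of loops in all 4 lists, and the loops nearest to both limits. Other names, the microRNAs among them, were picked with their values in view. Some list genes are not reported here.

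The code for the rule and the matching was run on 2000 simulated loops with 5 kb anchors. Desert loops were placed by the same rule, and unmoved loops were matched against their own copies. Recovery of 100% of both was therefore fixed in advance and checks the code alone. Of the loops moved away, 3.69% were still matched. Alternatives changed the distance from genes, the length limit, the anchor size, the gene types, the matching distance, the definition of clusters and of neighbouring genes, and left out libraries. Computation used Python 3.11.15, numpy 2.4.6, pandas 2.3.3, scipy 1.17.1 and matplotlib 3.10.9.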

Additional observations from a re-analysis of the deposited data

How the results depend on the processing

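The lower sharing of desert loops than of other loops kept its sign in all 16 alternative settings tried, among them 3 length classes and the leaving out of each library, which were chosen after seeing the data; without 1 library the mean difference was between -15.4 and -15.1 points. The difference in median length did not: it was above 0 in 7 of 11 settings, and was -7.50 kb at 200 kb from genes, -7.50 kb with 5 kb anchors only, -1.25 kb with 10 kb anchors only and -105 kb when genes of every biotype were kept away; without 1 library it was between 10.8 and 17.5 kb.

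Counts followed the rule. At 50 kb from genes the desert loops numbered 1405 in the knockout, 550 after progesterone, and 897 and 362 in vehicle replicates 2 and 3, in 528 clusters. At 200 kb they numbered 397, 118, 195 and 75 in the same order of lists, in 168 clusters, with 62 developmental genes beside or inside them. Anchors of 5 kb alone gave 537, 116, 244 and 59 loops, anchors of 10 kb alone 273, 125, 195 and 86, and a distance from genes of every biotype 45, 18, 22 and 6. With loops in all 4 lists only, 26 developmental genes were beside or inside. Loops of the vehicle lists absent from the knockout list numbered 35 of 290 at 50 kb and 4 of 46 at 200 kb. With 0 kb added to the anchors they numbered 29 of 104. Without vehicle replicate 2 they numbered 47 of 194, and 197 of 511 without replicate 3. Those absent from the progesterone list numbered 65 of 290 at 50 kb and 10 of 46 at 200 kb. They numbered 78 of 194 without vehicle replicate 2 and 305 of 511 without replicate 3. Loops of the progesterone list in no vehicle list numbered 140 of 550 at 50 kb and 37 of 118 at 200 kb. Of the 305 loops under the main rule they were 186 without vehicle replicate 2 and 101 without replicate 3. Knockout loops in no vehicle list numbered 261 of 397 at 200 kb. The matching shares over all loops were not taken under these settings. The leave-one-out counts rest on 1 vehicle list and so ask less of a loop. No paired analysis was possible because the knockout, progesterone and vehicle libraries share at most 1 replicate number. Without contact counts, depth limits every statement on loops that were not called.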
